A study of Mus musculus with 6 samples.

Results

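The guanylate-binding proteins (GBPs) and the immunity-related GTPases (IRGs) were followed here through 10 mouse genes chosen by name, Gbp2, Gbp3, Gbp4, Gbp5, Gbp6, Gbp7, Gbp9, Irgm1, Irgm2 and Igtp, of the 55487 genes in the count table. All 10 were in the table, and 6 of them (Gbp2, Gbp3, Gbp7, Irgm1, Irgm2 and Igtp) had enough reads to be among the 12669 genes tested. The cells were B16F10, a mouse melanoma line, infected either with a scramble shRNA (shCtr, n = 3) or with hairpin #2 against Osgep (shOSGEP, n = 3). OSGEP is the enzyme of the KEOPS complex that makes t6A, a modification of the tRNAs that read codons starting with A, and the comparison asks which transcripts change when it is depleted. PolyA RNA came from independent infections, and both groups carry an shRNA construct. Only hairpin #2 was sequenced, so an effect of OSGEP loss and an effect of that hairpin cannot be told apart.

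GBPs and IRGs are GTPases that interferons induce, and they coat and disrupt the vacuoles in which intracellular bacteria and parasites live. Interferon-gamma acts mainly through GAS elements in promoters and type I interferon mainly through ISRE elements, so most of these genes are switched on together. Within the IRG family the IRGM proteins (Irgm1, Irgm2 and Igtp, also called Irgm3) are regulators that hold the effector IRGs inactive on the cell's own membranes.

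In shOSGEP cells Gbp2, Irgm2 and Igtp were higher than in shCtr cells, by 4.16-, 4.35- and 7.11-fold in mean level, and were the 3 members past the study's threshold (Log2FC over 0.5 or under -0.5 with an unadjusted p under 0.05). Gbp3 and Gbp7 lay in the same direction, at 3.77- and 3.03-fold, without passing it. Irgm1, the member with the highest level in control cells, differed by 1.11-fold. Gbp4, Gbp5 and Gbp9 gave at most 1 count in any library, and Gbp6 at most 20. No member passed an adjusted p of 0.05, and the sizes for Irgm2 and Igtp rested in large part on shOSGEP replicate 2.

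The promoter sequences are shown because the members share an element there. The RefSeq promoter table (GRCm38.p6, from 250 bases before to 50 bases after each start site) held 7 of the 10 members. An ISRE-like motif (GAAANNGAAA on either strand) was found in a window of each of these 7, and in 3.44% of the 32851 promoters in the table. A GAS-like motif (TTCNNNGAA, the same on both strands) was found in 4 of the 7 (Gbp5, Gbp7, Irgm2 and Igtp) and in 8.3% of all promoters, and 0.454% of all promoters held both. Gbp3 had a second window in the table, at a later start site, which held neither motif. A match describes the letters only and is not evidence that a factor binds. The stretches below run 5′ to 3′ on the gene's strand from 110 bases before the start site, and the capitals mark ISRE-like and GAS-like matches. They lie at chr3:142620553-142620672 (+) for Gbp2, chr3:142559934-142560053 (+) for Gbp3, chr3:142530226-142530345 (+) for Gbp7, chr11:48871411-48871530 (-) for Irgm1, chr11:58214867-58214986 (+) for Irgm2 and chr11:58199446-58199565 (+) for Igtp, the 6 tested members.
Gbp2: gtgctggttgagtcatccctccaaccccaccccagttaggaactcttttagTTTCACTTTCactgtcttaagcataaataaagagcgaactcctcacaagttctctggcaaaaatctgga
Gbp3: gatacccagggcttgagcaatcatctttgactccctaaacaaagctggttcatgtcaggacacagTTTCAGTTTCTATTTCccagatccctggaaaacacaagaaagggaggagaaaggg
Gbp7: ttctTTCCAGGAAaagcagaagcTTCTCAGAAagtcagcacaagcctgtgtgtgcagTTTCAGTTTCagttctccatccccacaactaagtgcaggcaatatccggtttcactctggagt
Irgm1: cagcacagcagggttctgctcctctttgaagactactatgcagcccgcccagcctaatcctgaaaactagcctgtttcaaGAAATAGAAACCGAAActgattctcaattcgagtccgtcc
Irgm2: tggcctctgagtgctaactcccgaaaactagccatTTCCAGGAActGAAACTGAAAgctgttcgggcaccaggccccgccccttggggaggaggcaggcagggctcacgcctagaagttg
Igtp: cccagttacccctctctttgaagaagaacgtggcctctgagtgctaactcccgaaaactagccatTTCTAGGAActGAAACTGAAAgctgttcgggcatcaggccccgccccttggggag

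The ISRE-like match began 59 bases before the start site in Gbp2 and 53 bases before it in Gbp7. Gbp3 and Irgm1 each held overlapping matches, which began 45 and 39 bases before the start of Gbp3 and 30 and 24 bases before that of Irgm1. Igtp and Irgm2, neighbours on chromosome 11, carried nearly the same element: around the motif, 81 of 84 bases (96.4%) were identical between their promoters, and both had a GAS-like match 11 bases upstream of the ISRE-like one. Irgm1, the member with the smallest difference between groups, also held the ISRE-like letters, as did Gbp5, which gave no read. The RefSeq start sites do not all match the gene positions given below, which are from GENCODE. The Irgm2 stretch lies inside the Irgm2 gene, which begins at chr11:58199618, beside the start of Igtp. For Irgm2 and Gbp7, no GENCODE transcript of the gene holds all 50 bases from the RefSeq start. For Irgm1 these bases begin at base 264 of a transcript.

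**Figure D1:**
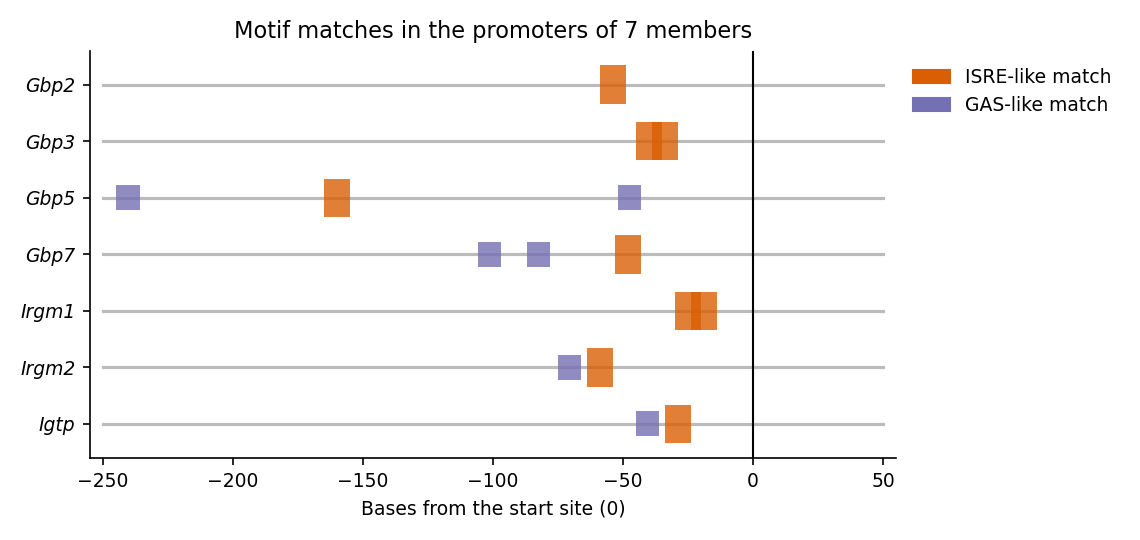
Positions of ISRE-like (orange) and GAS-like (violet) matches in the promoters of 7 members, with bases from the RefSeq start site on the horizontal axis and one line per gene. All 7 carry an ISRE-like match, within 64 bases of the start site in every gene but Gbp5, where it begins 165 bases before it.

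The libraries held 18915587 to 29487384 counts each, and 3 counts, the floor used here for detection, corresponded to 0.116 to 0.148 CPM (counts scaled to the library total with TMM factors). Osgep, the targeted gene, was at 20.6, 58.6 and 21.8 CPM in shCtr replicates 1, 2 and 3 and at 4.28, 0.542 and 5.52 CPM in the shOSGEP replicates, so the groups did not overlap (Log2FC -3.29, SE 0.876). The shOSGEP replicate 2 library, with the least Osgep, stood apart: the summed level of 7 melanocyte lineage markers was 3551 CPM there and 15390 to 29600 CPM in the other 5 libraries. Its shCtr partner of the same number stood apart too, with the highest sum of these markers. Not every marker was high there: Mitf, 1 of the 7, was at 29.4 CPM, its lowest value in any library. Leukocyte markers summed to 4.15 to 9.29 CPM and endothelial markers to 9 counts at most in any library. The 7 melanocyte markers all had a Log2FC below 0 (median -0.87) with 0 past the threshold. Between libraries of replicate number 1, 2 and 3, their median log2 ratio was -0.07, -2.55 and -0.12. In these numbers 2, 1 and 2 of the 7 were higher in shOSGEP. Only 2 of 8 leukocyte and 0 of 4 endothelial markers could be tested, with 0 past the threshold. Ptprc, Cd3e, Adgre1, Itgam, Cdh5 and Kdr had no count in any library. Among the other leukocyte markers, Csf1r had 13 counts, all in shOSGEP replicate 2. Lyz2 was highest in that library, at 81 counts against 33 to 41 elsewhere. Cd68 was lowest there, at 13 counts against 68 to 152. The part of these differences in the results below was not tested, but the Log2FC of each tested member is also given without replicate 2 libraries. In bulk RNA, a higher level per cell and a larger share of expressing cells cannot be told apart.

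Among the GBPs, Gbp2 had the highest level. Gbp2 (ENSMUSG00000028270, GRCm38 chr3:142620602-142638008, plus strand) was at 4.80, 2.61 and 6.59 CPM in shCtr replicates 1, 2 and 3 and at 15.5, 30.3 and 12.5 CPM in shOSGEP replicates 1, 2 and 3. Every shOSGEP library lay above every shCtr library, with means of 4.67 ± 2.00 and 19.4 ± 9.51 CPM (SD, n = 3 each). The fitted difference was a Log2FC of 2.06 (SE 0.575, edgeR quasi-likelihood test, unadjusted p = 0.0068, adjusted p = 1.00). Gbp2 ranked 30 of the 12669 genes by p. An exact permutation test of the mean log2 CPM gave a two-sided p of 0.1, the smallest that 3 against 3 libraries allow. Without shOSGEP replicate 2 the Log2FC was 1.59, and without both replicate 2 libraries it was 1.30, past the study's threshold in both fits.

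Gbp3 and Gbp7 lie beside Gbp2 in the same cluster on chromosome 3, at chr3:142560026-142573209 and chr3:142530342-142550149, both on the plus strand. Gbp3 measured 2.17, 0.246 and 2.17 CPM in the shCtr replicates against 5.58, 8.91 and 2.76 CPM in the shOSGEP replicates. The groups did not overlap, although shOSGEP replicate 3 lay close to the upper shCtr libraries, and the shCtr replicate 2 value rests on 5 counts. The Log2FC was 1.91 (SE 0.843, unadjusted p = 0.0524), just outside the threshold, 1.44 without shOSGEP replicate 2 and 0.94 without both replicate 2 libraries. With GC and length offsets, DESeq2, upper-quartile scaling or no filter on low counts, Gbp3 came within the threshold (unadjusted p of 0.0309, 0.0189, 0.0485 and 0.0217), but not with the replicate block (0.0952), with offsets and block together (0.0768) or with limma-voom and sample quality weights (0.0666).

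Gbp7 was lower, at 0.892, 0.246 and 0.415 CPM in shCtr and 2.84, 0.853 and 1.02 CPM in shOSGEP, on 5 to 61 counts. Here shCtr replicate 1 lay above shOSGEP replicate 2, so the groups overlapped, but within each replicate number the shOSGEP library was the higher one. The same-numbered log2 ratios were 1.67, 1.79 and 1.30, the most even of any member. The Log2FC was 1.58 (SE 0.750, unadjusted p = 0.0672), and with the replicate number as a block it was 1.57 with an SE of 0.446 and an unadjusted p of 0.0143, which passed the threshold. Adding GC and length offsets to the block took it out again, at 1.15 (unadjusted p = 0.0505). It was 1.88 without shOSGEP replicate 2 and 1.54 without both replicate 2 libraries.

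The remaining GBPs were at or near the limit of detection. Gbp6 (chr5:105270702-105293698, minus strand) gave 3, 0 and 2 counts in shCtr and 16, 20 and 2 counts in shOSGEP. Its shCtr libraries were all at or under the floor of 3 counts, as was shOSGEP replicate 3, so Gbp6 was left out of the test by the filter on low counts, and no fold is given here. Gbp4 had 1 count, in shOSGEP replicate 2, and Gbp5 and Gbp9 had none. These 3 genes were not detected at this depth, which allows up to 0.148 CPM in the library with the highest floor.

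Of the IRGM members, Irgm2 and Igtp passed the threshold and Irgm1 did not. Irgm1 (ENSMUSG00000046879, chr11:48861968-48871683, minus strand), whose product guards membranes of the secretory pathway and lysosomes, measured 29.1, 23.5 and 24.6 CPM in the shCtr replicates against 24.1, 39.8 and 21.8 CPM in the shOSGEP replicates. Only shOSGEP replicate 2 lay above the control range, and shOSGEP replicate 3 lay below it. The Log2FC was 0.15 (SE 0.423, 95% interval -0.82 to 1.12, unadjusted p = 0.726), so differences of either sign lie within the interval. Without shOSGEP replicate 2 its sign turned, to -0.15.

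Irgm2 (chr11:58199618-58222782, plus strand) measured 2.12, 3.0 and 2.12 CPM in the shCtr replicates against 4.84, 22.7 and 4.03 CPM in the shOSGEP replicates. The groups did not overlap, and shOSGEP replicate 2 was several times above its own group. The Log2FC was 2.12 (SE 0.756, edgeR quasi-likelihood test, unadjusted p = 0.0223, adjusted p = 1.00). Without shOSGEP replicate 2 it fell to 0.89 with an unadjusted p of 0.116, and without both replicate 2 libraries it was 1.06 with an unadjusted p of 0.0434. Leaving out shCtr replicate 1 or shCtr replicate 3 also raised its p above the threshold, to 0.0537 and 0.0666. With GC and length offsets, alone or with the replicate block, the Irgm2 groups overlapped.

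Igtp (ENSMUSG00000078853, chr11:58199556-58207591, plus strand) starts beside Irgm2 on the same strand. It measured 0.510, 1.62 and 0.646 CPM in the shCtr replicates against 2.47, 15.5 and 1.82 CPM in the shOSGEP replicates, again with no overlap and with replicate 2 the highest in both groups. Its Log2FC of 2.83 (SE 0.971, unadjusted p = 0.0188, adjusted p = 1.00) was the highest of the 6. It was 1.23 with an unadjusted p of 0.127 without shOSGEP replicate 2, 1.88 with an unadjusted p of 0.0160 without both replicate 2 libraries, and 2.62 with an unadjusted p of 0.0609 without shCtr replicate 3.

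**Figure D2:**
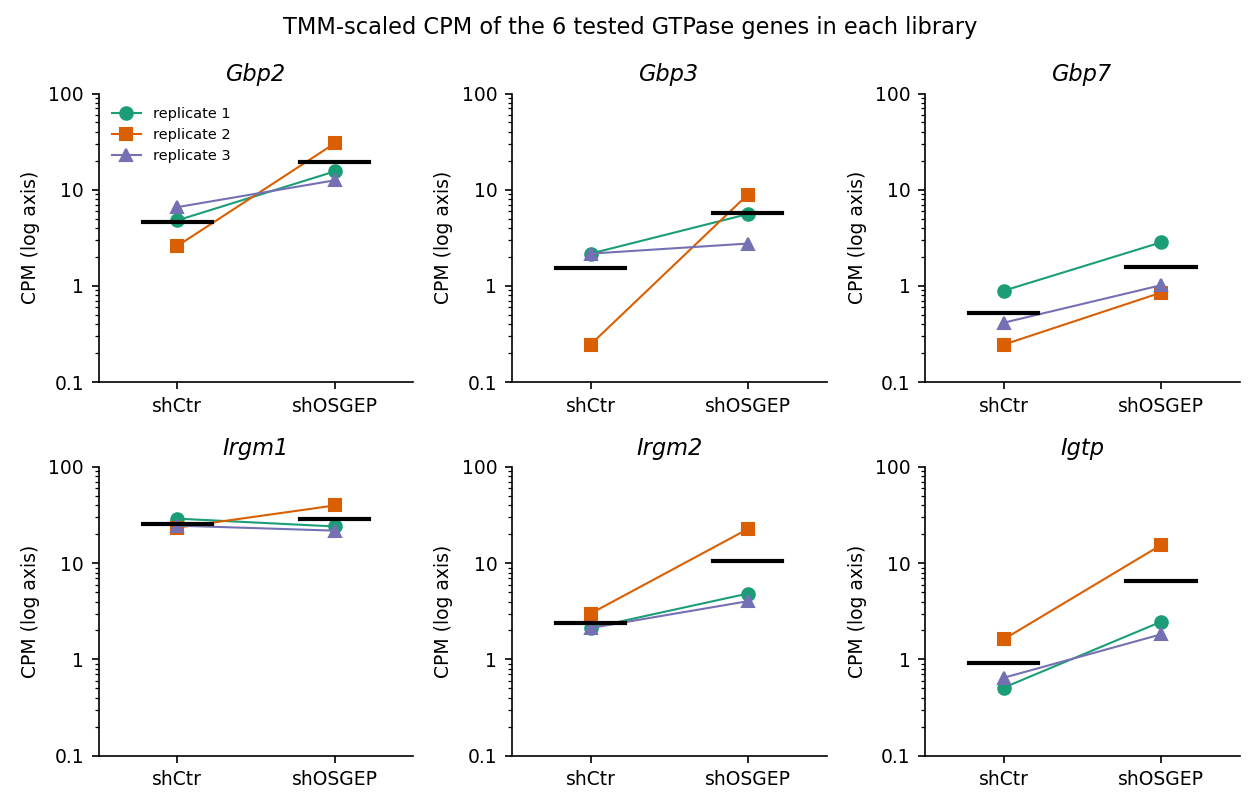
CPM after TMM scaling (vertical log axis) of the 6 tested members in the shCtr and shOSGEP libraries. Points are single libraries, lines join libraries of the same replicate number, and black bars are group means. Gbp2, Gbp3, Irgm2 and Igtp do not overlap between groups, Gbp7 and Irgm1 do, and replicate 2 (orange) is the highest shOSGEP library for all but Gbp7.

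Of the 6 members tested, all had a Log2FC above 0, with a median of 1.98, against -0.03 over all genes tested. Of all 12669 genes tested, 5998 had a Log2FC above 0. A gene with reads in shOSGEP only could enter the test and would then lie above 0, so the direction of the tested members is a description. The study's threshold was passed by 3 members, all higher in shOSGEP, where 1.59% of all genes tested passed it in that direction. With no overlap between groups and higher in shOSGEP there were 4 members, against 3.49% of all genes. At an adjusted p under 0.05 edgeR called 0 members and 0% of all genes, where 3 members and 256 genes had an unadjusted p under 0.05. DESeq2 called 0 members after adjustment and 0.111% of all genes, and put 4 members and 2.92% of all genes past the study's threshold. Limma-voom with sample quality weights called 0 members and 0.0237% of all genes after adjustment. The same weights with the replicate block, a fit chosen after seeing the data, called 5 of the 6, all but Irgm1, and 11.1% of all genes tested. Without shOSGEP replicate 2 the count past the threshold was 1 member, Gbp2, with 0.516% of all genes past it in either direction. It was also 1 without shCtr replicate 3, with 1.27% of all genes. Without shOSGEP replicate 3 it was 5, with 2.98% of all genes, but 7 members were tested in that fit. Gbp6, whose shCtr counts are at or under the floor, was among these 5.

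Taken by replicate number, the median log2 ratio over the 6 members was 1.45, 3.03 and 0.91 for numbers 1, 2 and 3, beside -0.03, 0.11 and -0.01 over all genes. In numbers 1 and 3, 5 of the 6 members were higher in shOSGEP, the exception being Irgm1 at -0.27 and -0.17. All 6 were higher in number 2, where Gbp3 had the greatest ratio, at 5.18, on a control value of 5 counts. Of all 12669 genes tested, 5911, 6641 and 6115 were higher in shOSGEP in numbers 1, 2 and 3. Gbp2 gave log2 ratios of 1.69, 3.54 and 0.92, Irgm2 of 1.19, 2.92 and 0.93, and Igtp of 2.27, 3.25 and 1.5. For these genes, Gbp3 and Gbp7, numbers 1 and 3 had the direction of number 2 at a smaller size.

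**Figure D3:**
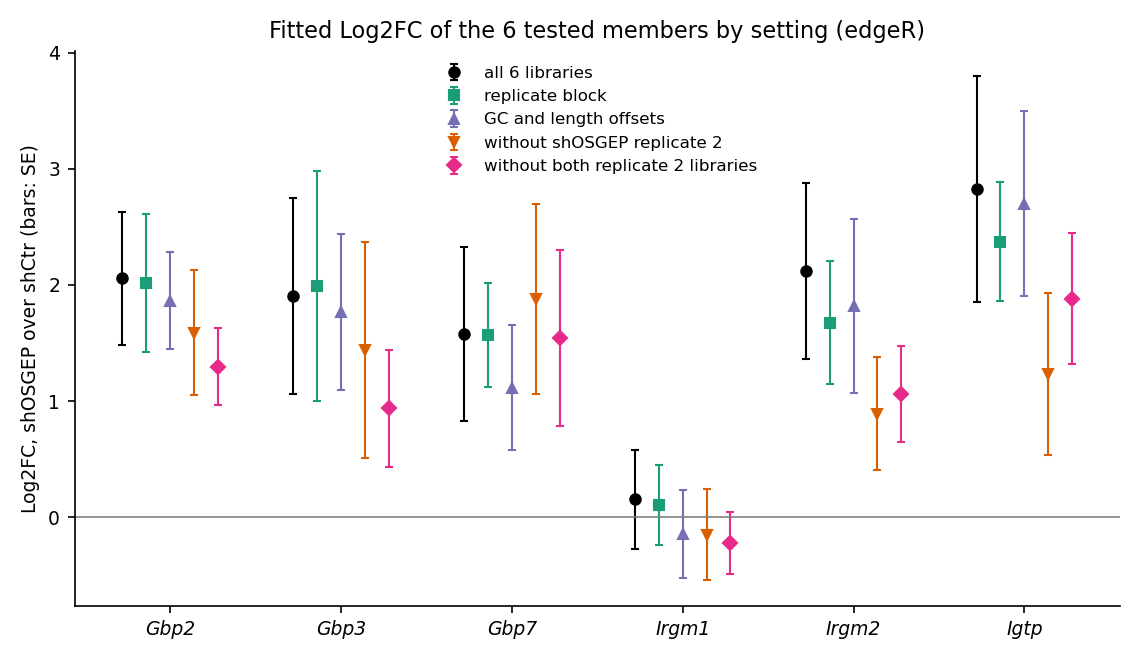
Fitted Log2FC (shOSGEP over shCtr, bars are SE) of the 6 tested members with all libraries, with the replicate block, with GC and length offsets, and without replicate 2 libraries. Igtp and Irgm2 move most, from 2.83 to 1.23 and from 2.12 to 0.89 without shOSGEP replicate 2, and Irgm1 stays between -0.22 and 0.15.

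Because a ratio between members of one library does not depend on its depth or scaling, each of the other tested members was also set against Irgm1 in counts. The log2 ratio of Igtp to Irgm1 was -5.83, -3.85 and -5.25 in shCtr and -3.29, -1.37 and -3.58 in shOSGEP, a shift of 2.23. For Gbp2 to Irgm1 it was -2.60, -3.17 and -1.90 in shCtr and -0.64, -0.40 and -0.80 in shOSGEP, a shift of 1.94 with an SD of 0.64 in shCtr and 0.20 in shOSGEP. Neither ratio overlapped between groups, nor did those of Gbp3 and Irgm2 to Irgm1, which shifted by 2.19 and 1.57. The exact permutation p was 0.1 for each of these 4 ratios and 0.2 for Gbp7 to Irgm1, and Benjamini-Hochberg adjustment over the 7 ratios computed leaves the lowest at 0.175. The ratio of Igtp to Irgm2 shifted by 0.66 and that of Gbp2 to Irgm2 by 0.37, both with overlapping groups (exact permutation p of 0.3 and 0.6).

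Compared per kilobase of the longest transcript, the order of the levels in shCtr was Irgm1 at 6.71, Gbp2 at 1.86, Irgm2 at 0.685, Gbp3 at 0.569, Igtp at 0.458, Gbp7 at 0.0922 and Gbp6 at 0.0173 CPM per kb. In shOSGEP the same quantity was 7.46 for Irgm1, 7.72 for Gbp2, 2.98 for Irgm2, 2.14 for Gbp3, 3.26 for Igtp, 0.280 for Gbp7 and 0.126 for Gbp6. The ranges of Irgm1 and Gbp2 did not overlap in shCtr and did in shOSGEP. Irgm2, Gbp3 and Igtp, neighbours in the order, overlapped one another's ranges in both groups. Irgm1 made up 59.1 to 68.4% of the members' summed level per kb in shCtr and 25.9 to 40.8% in shOSGEP, and the share of Gbp2 went from 11.6 to 24.1% to 30.0 to 35.7%. The summed CPM of all members was 39.7, 31.2 and 36.6 in shCtr and 56.1, 119 and 44.0 in shOSGEP, and without Irgm1 it was 10.6, 7.72 and 12.0 against 31.96, 79.0 and 22.2.

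**Figure D4:**
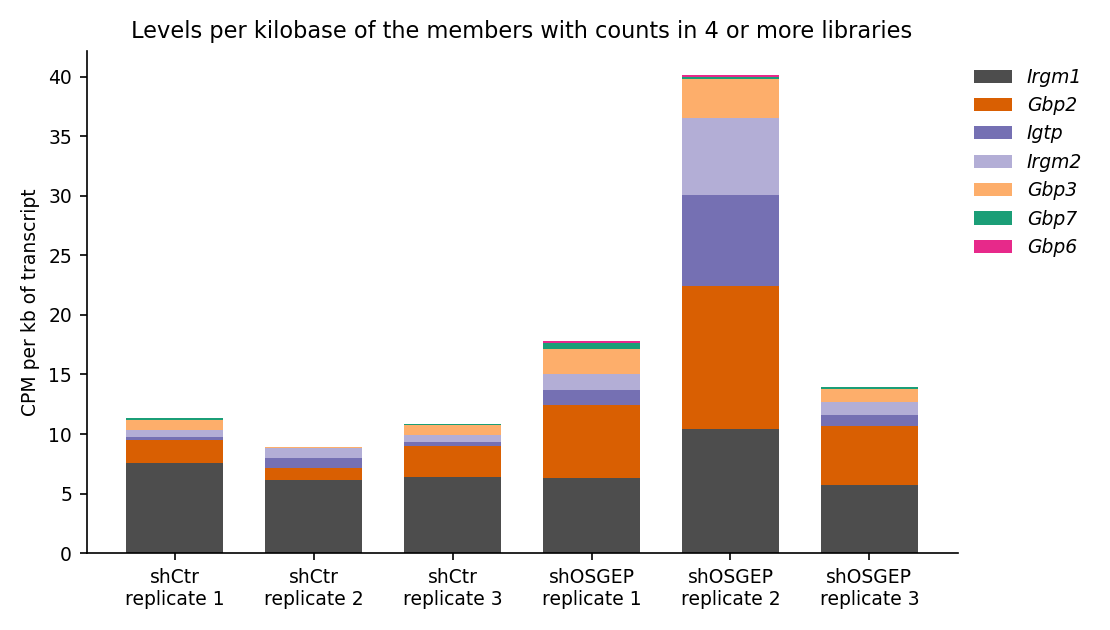
Stacked levels of 7 members in each library, in CPM per kb of the longest transcript. Irgm1 (dark grey) is the greatest part of each shCtr bar and makes up 25.9 to 40.8% of the shOSGEP bars, while Gbp2 (orange) makes up 30.0 to 35.7% of them.

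The members share parts of their sequence with each other or with relatives, and reads that fit more than one gene are divided by estimation. Of the 31-base words in the Gbp2 transcripts 4.85% occur in another gene (4.61% in Gbp2b), and of those in Gbp3 5.64% do, nearly all in Gbp7. Igtp shares 15.9% of its words with Irgm2, and Irgm2 shares 9.16% with Igtp. These neighbours also overlap by 162 exonic bases on the same strand, 8.01% of the Igtp exons. The part of shared reads in their common pattern was not tested. Gbp7 overlaps the processed pseudogene Gm43802 by 637 exonic bases, and Gm43802 itself had 1 count. Gbp6 is the uncertain one: 74.2% of its words occur elsewhere, with 67.8% in Gm43302, which overlaps it by 1726 exonic bases and was given 0 counts, and 51.4% in Gbp10, which was given none either. Irgm1 shares 2.2% of its words with any other gene.

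Over the 6 libraries the log2 CPM of Irgm2 and Igtp had a Pearson r of 0.984, and that of Gbp2 and Gbp3 had 0.926, while Gbp7 and Irgm1 had 0.0476. These are descriptions over libraries that share the group difference and the replicate 2 libraries. The 5 genes outside the family with a pattern most like the mean of the standardised members were Zbtb4 (r = 0.997), Sorbs2 (0.996), Otulinl (0.996), Mgat3 (0.990) and Epha1 (0.990), each over 6 libraries. Zbtb4, a zinc finger transcription factor, went from a mean of 7.23 to 13.8 CPM, and Sorbs2, an adaptor of the actin cytoskeleton, from 1.20 to 9.89 CPM. Epha1, an ephrin receptor, went from 0.886 to 7.05 CPM. All 5 were highest in shOSGEP replicate 2, as were the tested members other than Gbp7.

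The other GTPases listed, interferon-inducible ones and their relatives, were mostly near 0 counts. Of these, 4 of 18 could be tested, 3 of them with a Log2FC above 0 and a list median of 1.09. Mx2, a relative of the antiviral dynamin-like GTPase Mx1, was the 1 past the threshold (Log2FC 2.33, SE 0.976, unadjusted p = 0.0434), with overlapping groups. Mx1 had a Log2FC of 1.60 (unadjusted p = 0.0505), Ifi47, an effector-type IRG, 0.59 (unadjusted p = 0.241, groups without overlap) and Irgq, an IRG-related protein of the autophagy system, -0.63 (unadjusted p = 0.219). Mx2 was at 1.27 with an unadjusted p of 0.228 without shOSGEP replicate 2 and at 1.44 (0.218) without both replicate 2 libraries. Of the effector IRGs that the IRGM proteins regulate, Iigp1 gave 4, 0 and 0 counts in shCtr and 1, 5 and 0 in shOSGEP, Tgtp2 gave 4, 0 and 0 and then 1, 19 and 1, and Tgtp1 gave 8 counts, all in shOSGEP replicate 2. Gbp8, Gbp10, Gm4841, Gm5431, F830016B08Rik, Irgc1 and Gvin1 gave no count.

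Upstream of the family, 16 of 20 genes of interferon signalling were tested, 13 with a Log2FC above 0 and 3 below, with a median of 0.28. Nlrc5, the transactivator of MHC class I genes and itself interferon-inducible, passed the threshold (Log2FC 1.67, SE 0.658, unadjusted p = 0.0335) with no overlap between groups. Usp18, an inhibitor of the type I receptor, had a Log2FC of 2.76 (unadjusted p = 0.0799). Without shOSGEP replicate 2, Nlrc5 was at 1.10 (unadjusted p = 0.128) and Usp18 at -0.08. Without both replicate 2 libraries, Nlrc5 was at 0.93 (unadjusted p = 0.175) and Usp18 at 1.55 (unadjusted p = 0.0422), which passed the threshold.

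Downstream, 16 of 19 genes of the ATG8 conjugation machinery, which delivers GBPs and IRGs to vacuoles, and of the inflammasomes that GBPs feed were tested. Their median Log2FC was 0.22, with 10 above 0 and 6 below. Casp4, which encodes caspase-11, the sensor of cytosolic lipopolysaccharide that GBPs help to activate, passed the threshold (Log2FC 2.74, SE 1.17, unadjusted p = 0.0456). It measured 1.79, 0.0492 and 0.553 CPM in the shCtr replicates against 2.93, 11.7 and 1.53 CPM in the shOSGEP replicates, so the groups overlapped, and the lowest value is 1 count. Atg12, a ubiquitin-like conjugation protein, had a Log2FC of 1.03 (unadjusted p = 0.113) and Pycard, the inflammasome adaptor, -0.87 (unadjusted p = 0.180). Casp4 was at 1.47 with an unadjusted p of 0.253 without shOSGEP replicate 2. Without both replicate 2 libraries it was at 0.92, Atg12 at 0.08 and Pycard, its sign turned, at 0.07. The member list thus had the highest median of the 4 lists, which were not tested against each other.

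**Figure D5:**
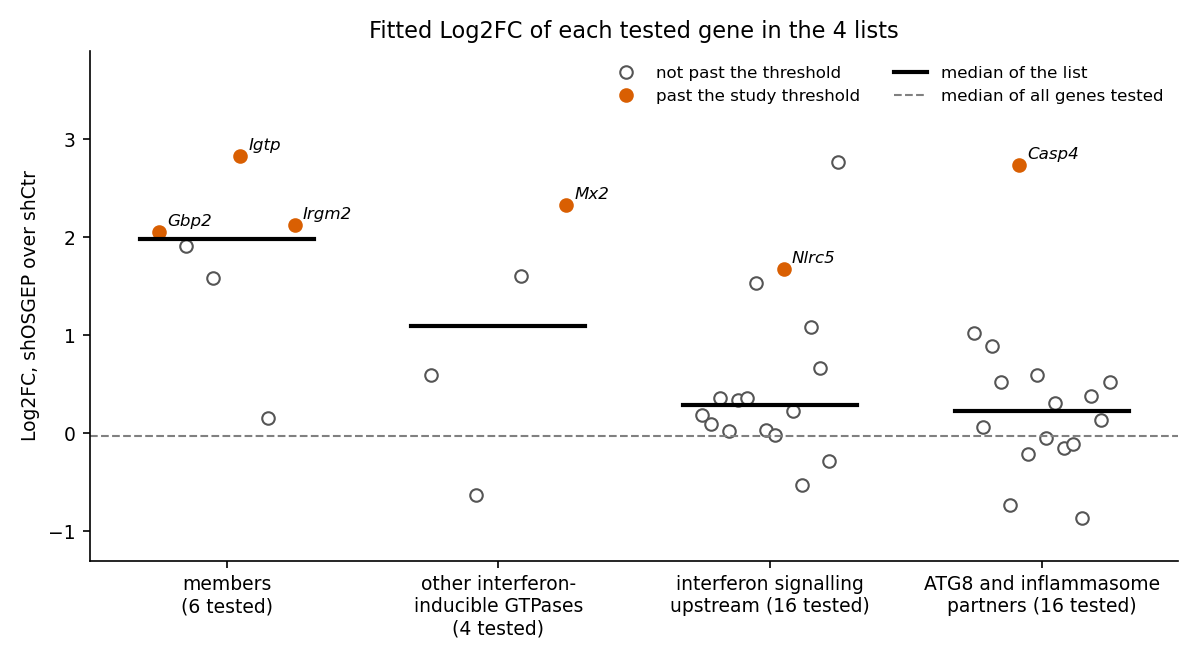
Fitted Log2FC (vertical axis, shOSGEP over shCtr) of each tested gene in the 4 lists, with filled points past the study's threshold, black bars at list medians and a dashed line at the median of all genes tested. The medians are 1.98 for the members, 1.09 for the other GTPases, 0.28 for interferon signalling and 0.22 for the ATG8 and inflammasome partners.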

How the data were processed

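PolyA RNA from 3 independent infections per group was sequenced by the authors as paired-end libraries (TruSeq V2, a kit that does not mark strand). Per the labels and the study's methods, reads were aligned to GRCm38 with STAR 2.6.1d and quantified with Salmon 1.4.0, and the deposited values are estimated counts per gene, written as whole numbers; the annotation release is not given in the sources used here. Salmon divides reads that fit several genes, so values of near-identical members are estimates, and the floor of 3 counts covers counting error only.

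The counts were tested with edgeR 4.0.16 (R 4.3.3, filterByExpr with a minimum count of 10, TMM scaling, quasi-likelihood test, Benjamini-Hochberg adjustment over all 12669 genes tested), after a check on simulated counts. The simulated libraries varied less than the libraries here, so that check does not measure how the test performs on these data. Log2FC is shOSGEP over shCtr, CPM is TMM-scaled, SE is the Log2FC divided by the root of F, and p-values measure only the spread between these infections. DESeq2 1.42.0 and limma 3.58.1 were alternatives, with other scalings, no filter, GC and length offsets and libraries left out. The main test held no replicate block, so its p-values do not use any pairing. For the replicate block and the same-numbered ratios, the replicate numbers were taken as pairing the libraries. Same-numbered libraries deviated from their group means together, with correlations of 0.811, 0.557 and 0.196 for numbers 1, 2 and 3. For number 3 the pairing is weak, since shCtr replicate 3 correlated more with shOSGEP replicate 1 (0.491). The labels do not say what a number shares. GENCODE M21 gave positions, lengths and shared 31-base words, and RefSeq gave promoters. Named genes were the members, Osgep, up to 3 genes per list with the smallest p or past the threshold, and the 5 genes most alike in pattern; untested relatives, Gm43302 and Gm43802 were named after their values were seen. A gene that this rule also names is not reported here. Members and lists were chosen with earlier results of these data known.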

Additional observations from a re-analysis of the deposited data

How the results depend on the processing

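Gbp2 passed the study's threshold in all 19 alternatives, with a Log2FC of 1.26 to 2.62. The Log2FC of Gbp3 ranged from 0.93 to 2.58, that of Gbp7 from 0.84 to 2.23, that of Igtp from 1.23 to 3.50 and that of Irgm2 from 0.89 to 2.50, with no sign turned; the median over the members ranged from 1.18 to 2.58 and the count without overlap, in either direction, from 3 to 6. The 6, without both replicate 2 libraries, include Irgm1 as lower. Groups separate more easily with fewer libraries, and the share of all genes without overlap is not given for these settings. The count of 6 is thus no sign of a clearer separation. The count past the threshold, 3 with all libraries, was 5 without a filter on low counts (2.75% of all genes past it). Without that filter 8 members were tested, and Gbp6, whose shCtr counts are at or under the floor, was among the 5. When single libraries were left out the count was 1 to 5. Gbp6 was tested in some of these fits, and was past the threshold without shCtr replicate 1 and without shOSGEP replicate 3. With the replicate block the count was 4 (2.94% of all genes) and the median 1.83, and the block changed no other member's call than that of Gbp7. Limma-voom with sample quality weights and the replicate block, chosen after seeing the data, put 5 members and 11.4% of all genes past the threshold and 5 members at an adjusted p under 0.05, giving the replicate 2 libraries weights of 0.112 and 0.113; every other alternative left 0 members at that level. Irgm1 turned sign at -0.065 with sample quality weights, at -0.15 with GC and length offsets, at -0.16 with these offsets and the block, at -0.22 without both replicate 2 libraries, at -0.22 with weights and block, and between -0.15 and 0.31 when single libraries were left out. The causes were not tested. Upper-quartile scaling moved the median of all genes by 0.10. Low counts limit Gbp3, Gbp6, Gbp7 and Igtp, and 3 libraries a group limit every exact test to p = 0.1.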
